A study of Homo sapiens with 8 samples.

Results

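Nuclear factor kappa B (NF-κB) is a family of dimeric transcription factors that switch on inflammatory, survival and differentiation genes. The 10 genes described here encode its 5 subunits (NFKB1, NFKB2, REL, RELA and RELB) and 5 regulators that restrain or redirect it (NFKBIA, NFKBIB, NFKBIE, TNFAIP3 and BCL3). They were chosen by name, with earlier results of these data known, and all 10 were found among the 22623 gene symbols with a RefSeq model. All 10 also belong to the 11050 genes that averaged 1 FPKM or more and could be compared. FPKM scales sequenced fragments to the length of a transcript model and to the mapped fragments of the library, so that levels of different genes can be set side by side.

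The RNA came from NB4, an established human line of acute promyelocytic leukaemia with the PML-RARA fusion, whose cells mature towards granulocytes under all-trans retinoic acid (ATRA). All groups carried a lentiviral short hairpin RNA, either a scrambled control (shScr) or one against the transcription factor TFEB (shTFEB), and were kept for 72 h in ethanol vehicle or 1 µM ATRA. Each of the 4 combinations of hairpin and treatment has 2 samples in the labels. Whether a group was a pool or a clone, and whether the 2 samples came from separate cultures, is not given in the sources used here. The deposited tables hold 1 FPKM per transcript model and group, which leaves no spread between samples to test against, and the text holds no p-value. The words rose and fell are kept for a log2((FPKM + 1)/(FPKM + 1)) of at least 1 in size, called the 2-fold mark, which is a size and not a test.

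In resting cells NF-κB dimers are held in the cytoplasm by inhibitors of the IκB family. The IKK kinase complex marks the inhibitor for degradation and the freed dimer enters the nucleus. Among the genes it then switches on are those of its own inhibitors and of several subunits, a feedback that limits the response. NFKB1 and NFKB2 encode the precursors p105 and p100, which are cut to the DNA-binding subunits p50 and p52 and act as inhibitors while uncut. Only mRNA was measured, so none of the values below is a measure of NF-κB activity.

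The group labels were first set against TFEB itself. TFEB stood at 1.203 FPKM under vehicle and 19.4 FPKM under ATRA in shScr cells, and at 1.35 and 8.44 FPKM in the line labelled shTFEB, so that the shTFEB level was 43.6% of the shScr level under ATRA but 113% of it under vehicle. Both vehicle values were low, and their deposited bounds overlapped (0.928 to 1.52 FPKM in shScr and 1.11 to 1.63 FPKM in labelled shTFEB). The bounds under ATRA did not overlap (17.9 to 20.9 and 7.41 to 9.51 FPKM). The vehicle group is therefore called "labelled shTFEB vehicle", and its line, where both of its groups are meant, the line or cells "labelled shTFEB". Depth relative to shScr vehicle, read from the upper bounds that the tables give to models at 0, was 1.05, 1.17 and 0.911 in shScr ATRA, labelled shTFEB vehicle and shTFEB ATRA. Of 8 promyelocyte markers 7 reached a mean of 1 FPKM, while ELANE stayed under 0.1 FPKM in every group, and the summed marker level was 4368, 1060, 2861 and 911 FPKM in shScr vehicle, shScr ATRA, labelled shTFEB vehicle and shTFEB ATRA. Of the 7, 4 fell and 1 rose with ATRA in each line. Monocyte and macrophage markers (10 genes, 4 comparable) summed to between 73.0 and 88.3 FPKM, and with ATRA 2 rose and 2 fell in shScr cells and 2 rose and 1 fell in cells labelled shTFEB. Epithelial, endothelial and stromal markers (10 genes, 4 comparable) summed to between 29.6 and 36.2 FPKM, and 2 rose and 0 fell with ATRA in each line. Of 8 erythroid and platelet markers 7 stayed under 0.1 FPKM (sum 0.188 to 2.86 FPKM). The remaining 1, ITGA2B, could be compared and rose with ATRA in cells labelled shTFEB only. It was also higher past the mark in shTFEB ATRA than in shScr ATRA, where 2.67% of all genes were. The 11 lymphocyte markers summed to 39.1, 188, 39.03 and 133 FPKM in the same order. Of the 4 that could be compared 2 rose and 2 fell with ATRA in each line, and CD3E, CD2, TRAT1 and MS4A1 were under 0.1 FPKM in every group. Of all genes 12.5% rose and 15.2% fell with ATRA in shScr cells, and 11.5% and 10.5% in cells labelled shTFEB. The part of these markers in the results below was not tested.

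Because several members are known targets of NF-κB, the 250 bases before their RefSeq transcription starts were searched for the κB consensus on both strands. The consensus has 10 bases: 3 G, a purine, 2 bases of any kind, 2 pyrimidines and 2 C. RefSeq windows of build GRCh38.p14 matched 8 of the 10 members. Of their 13 windows 7 held the consensus, beside 9.96% of all 35116 windows. The matches read as follows, 5′ to 3′ on the gene's strand, with the matching bases in capitals.
NFKBIA, minus strand, chr14:35404761-35404870: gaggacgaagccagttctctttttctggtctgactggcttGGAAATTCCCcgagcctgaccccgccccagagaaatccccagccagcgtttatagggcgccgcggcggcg
TNFAIP3, plus strand, chr6:137867188-137867217: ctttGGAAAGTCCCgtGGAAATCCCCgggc
NFKB1, plus strand, chr4:102501300-102501329: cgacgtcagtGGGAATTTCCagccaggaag
NFKB2, middle start, plus strand, chr10:102394462-102394491: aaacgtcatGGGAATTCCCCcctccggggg
NFKB2, last start, plus strand, chr10:102395674-102395703: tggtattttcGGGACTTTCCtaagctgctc
REL, plus strand, chr2:60881518-60881547: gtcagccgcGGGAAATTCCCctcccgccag
NFKBIB, downstream start, plus strand, chr19:38899932-38899961: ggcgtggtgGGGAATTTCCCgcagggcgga

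The NFKBIA match began 81 bases before the start site and the NFKB1 match 49 bases before it. TNFAIP3 held 2 matches between 67 and 46 bases before its start, and in REL, NFKBIB and the middle NFKB2 window 2 matches on opposite strands overlapped. The middle and last NFKB2 windows held 1 further match each, and no match was found for RELA and BCL3. A match is a description of the letters and not evidence of binding.

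ATRA raised 8 of the 10 genes in shScr cells and lowered none, where 12.5% of all genes rose past the same mark and 15.2% fell. The median log2 ratio was 1.93 over the members and −0.15 over all genes. In cells labelled shTFEB 7 of the 10 rose and none fell, where 11.5% of all genes rose and 10.5% fell, with a median of 1.49 over the members and −0.13 over all genes. The same 7 genes rose in both lines, where 9.59% of all genes did. RELA and NFKBIB passed the mark in neither line, and NFKB1 lay just under it in cells labelled shTFEB. In these bulk samples more RNA per cell and more cells that express a gene cannot be told apart.

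**Figure D1:**
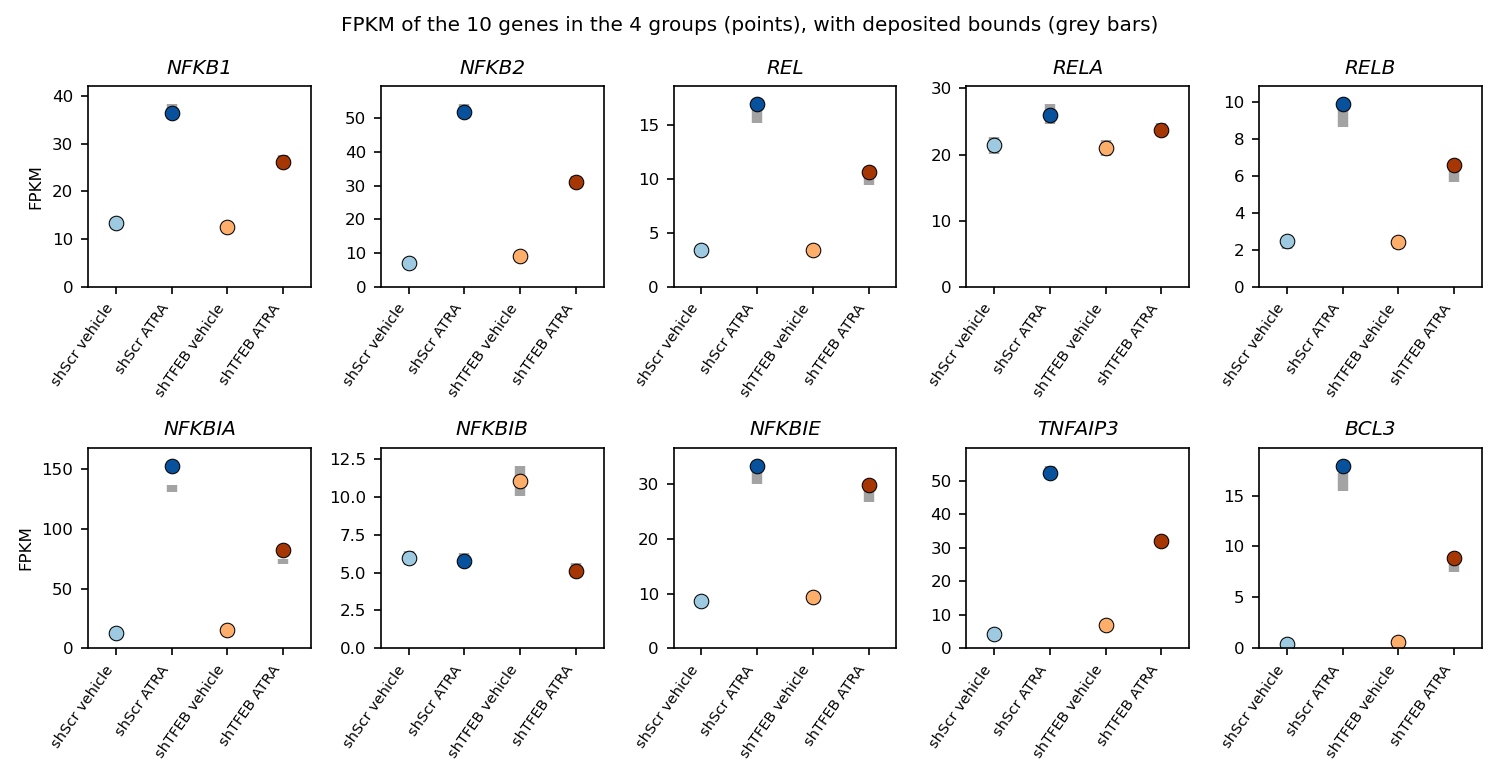
FPKM of each gene (vertical axes, each from 0) in the 4 groups, with the bounds that the tables give to each value as grey bars, summed over the models of a gene. Both ATRA groups lie above both vehicle groups for every gene except NFKBIB, and shScr ATRA is the highest group for 9 of the 10.

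RELA encodes p65, the subunit that carries most of the activating function in the classical pathway. It was the highest of the 10 genes in both vehicle groups, at 21.4 FPKM in shScr and 20.9 FPKM in the labelled shTFEB group. Under ATRA it stood at 26.0 FPKM (shScr) and 23.7 FPKM (shTFEB), with bounds that did not overlap those of vehicle in either line. RELA thus differed by at most 1.22-fold between any vehicle group and its ATRA group, and it was only the 6th highest of the 10 genes in both ATRA groups.

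NFKB2, the p100 gene of the alternative pathway, had the widest range of the subunits. It went from 7.17 to 51.9 FPKM in shScr cells, a 7.23-fold rise with a log2 ratio of 2.69. In cells labelled shTFEB it went from 9.16 to 31.1 FPKM, a 3.40-fold rise (log2 ratio 1.66). The 4 values are ordered shScr vehicle, labelled shTFEB vehicle, shTFEB ATRA and shScr ATRA, and none of the deposited bounds overlap.

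REL encodes c-Rel, a subunit best known from lymphocytes and myeloid cells. Its level went in shScr cells from 3.41 to 16.9 FPKM (4.97-fold, log2 ratio 2.03) and from 3.39 to 10.7 FPKM in cells labelled shTFEB (3.15-fold, log2 ratio 1.41). The bounds of the 2 vehicle values overlap and those of the 2 ATRA values do not.

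RELB, the partner of p52 in the alternative pathway, was the lowest subunit in every group. It went from 2.46 to 9.88 FPKM in shScr cells (log2 ratio 1.65) and from 2.44 to 6.60 FPKM in cells labelled shTFEB (log2 ratio 1.14). Like REL, it had vehicle values that overlapped and ATRA values that did not.

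NFKB1, the p105 gene, was the second highest subunit under vehicle, at 13.5 FPKM in shScr and 12.7 FPKM in the labelled shTFEB group. In shScr cells ATRA brought it to 36.5 FPKM (2.72-fold, log2 ratio 1.38). In cells labelled shTFEB it stood at 26.2 FPKM, 2.07 times the vehicle value, and the log2 ratio of 0.99 missed the mark because of the added 1 FPKM.

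The make-up of the subunit mRNA shifted accordingly. The 5 subunits summed to 47.9 FPKM under vehicle and 141 FPKM under ATRA in the shScr line, and to 48.6 and 98.2 FPKM in the labelled shTFEB vehicle and shTFEB ATRA groups. RELA made up 44.7% of that sum in shScr vehicle and 18.4% in shScr ATRA, while the share of NFKB2 was 14.98% and 36.7%. In cells labelled shTFEB, RELA made up 43.1% under vehicle and 24.1% under ATRA, and NFKB2 18.8% and 31.7%. The share of NFKB1 lay between 25.9% and 28.1% in all 4 groups. The level of NFKB2 relative to NFKB1 was 0.533 in shScr vehicle, 1.42 in shScr ATRA, 0.724 in labelled shTFEB vehicle and 1.19 in shTFEB ATRA, so that the order of the 2 precursor genes was the opposite in vehicle and ATRA groups of both lines.

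**Figure D2:**
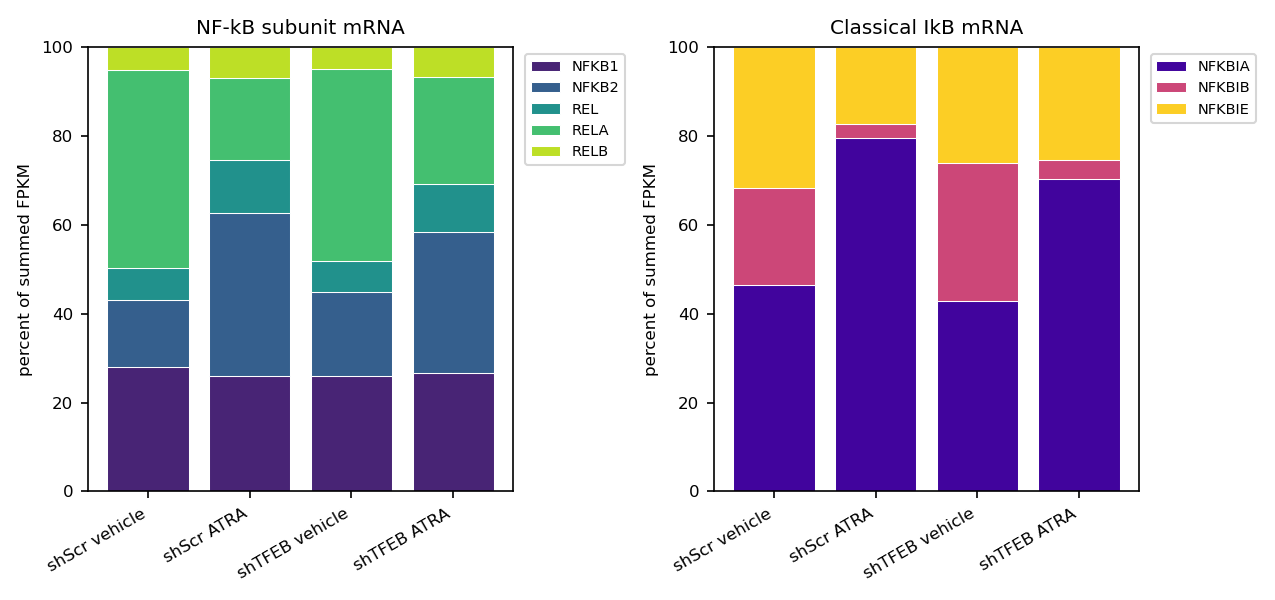
Share of each gene in the summed FPKM of the 5 subunit genes (left) and of the 3 classical IκB genes (right) in the 4 groups, as percent from 0 to 100. RELA takes the largest share of the subunits under vehicle and NFKB2 under ATRA, and NFKBIA takes the largest IκB share in every group, at 42.8% to 79.6%.

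NFKBIA, the gene of IκBα and the textbook feedback inhibitor, was the highest of the 10 genes in both ATRA groups. In the shScr line it stood at 12.7 FPKM under vehicle and 153 FPKM under ATRA, a 12.0-fold rise with a log2 ratio of 3.49. The labelled shTFEB vehicle and shTFEB ATRA groups held 15.3 and 82.4 FPKM, a 5.39-fold rise (log2 ratio 2.36). Of all genes tested, 1.93% had a higher ratio in shScr cells and 3.86% in cells labelled shTFEB. Each of these 4 FPKM values lay above its own deposited upper bound (137 FPKM in shScr ATRA), and with the midpoints of the bounds the folds were 11.8 and 5.31.

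NFKBIE, the gene of IκBε, stood at 8.61 FPKM under vehicle and 33.3 FPKM under ATRA in shScr cells (3.87-fold, log2 ratio 1.84). In cells labelled shTFEB it went from 9.35 to 29.8 FPKM (3.18-fold, log2 ratio 1.57). Of the 8 genes that rose in shScr cells it had the smallest difference between the 2 responses, −0.27 on the log2 scale.

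NFKBIB, the gene of IκBβ, rose in neither line. Under vehicle it stood at 5.95 FPKM in the shScr line and 11.04 FPKM in the group labelled shTFEB, and under ATRA at 5.77 and 5.13 FPKM. The group labelled shTFEB vehicle stands apart, and its log2 ratios, 0.79 against shScr vehicle and −0.97 for shTFEB ATRA against it, came nearest to the mark among the members in those directions without passing it. The level in shTFEB ATRA was 46.5% of that in labelled shTFEB vehicle, with bounds that did not overlap, and missed the mark because of the added 1 FPKM. With 0.1 FPKM added the log2 ratio was −1.09. At a 1.5-fold mark, chosen after the values were seen, NFKBIB was the 1 member higher between the vehicle groups, where 2.52% of all genes were, and the 1 member lower with ATRA in cells labelled shTFEB, where 24.4% were.

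Together the 3 classical IκB genes summed to 27.2 FPKM (vehicle) and 192 FPKM (ATRA) in shScr cells, and to 35.7 and 117 FPKM in the labelled shTFEB vehicle and shTFEB ATRA groups. Set against the summed subunits, that is 0.569 IκB FPKM per subunit FPKM in shScr vehicle and 1.36 in shScr ATRA. The corresponding values were 0.734 and 1.19 in the line labelled shTFEB. The summed FPKM of the 3 classical IκB genes was therefore above that of the subunit genes in both ATRA groups and in neither vehicle group. The comparison depends on how the sums are made up. The IκB sum includes NFKBIB, whose FPKM lay wholly in a noncoding model except in labelled shTFEB vehicle. It also includes the NFKBIA values above their own upper bounds. The p105 and p100 genes count as subunits only.

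TNFAIP3 encodes A20, a ubiquitin-editing enzyme that shuts off signalling upstream of IKK. It went from 4.30 to 52.2 FPKM in shScr cells (12.2-fold, log2 ratio 3.33) and from 6.92 to 31.9 FPKM in cells labelled shTFEB (4.62-fold, log2 ratio 2.06). A20 mRNA was the second highest of the 10 genes in both ATRA groups, next to NFKB2, whose bounds overlapped it in each.

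BCL3 encodes an IκB relative that acts in the nucleus with p50 and p52 dimers. It was the lowest of the 10 genes under vehicle, at 0.433 FPKM in shScr (bounds 0.303 to 0.551) and 0.666 FPKM in the labelled shTFEB group (0.499 to 0.822). Under ATRA it reached 17.9 FPKM (shScr) and 8.84 FPKM (shTFEB). These are 41.3-fold and 13.3-fold rises, on log2 ratios of 3.72 and 2.56, the largest among the members with 1 FPKM added. The values depend on that choice: with 0.1 FPKM added the log2 ratios of BCL3 were 5.08 and 3.54, and with 5 FPKM added 2.08 and 1.29. In the latter case they were smaller than those of NFKBIA (3.16 and 2.11), TNFAIP3 (2.62 and 1.63) and NFKB2 (2.22 and 1.35).

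**Figure D3:**
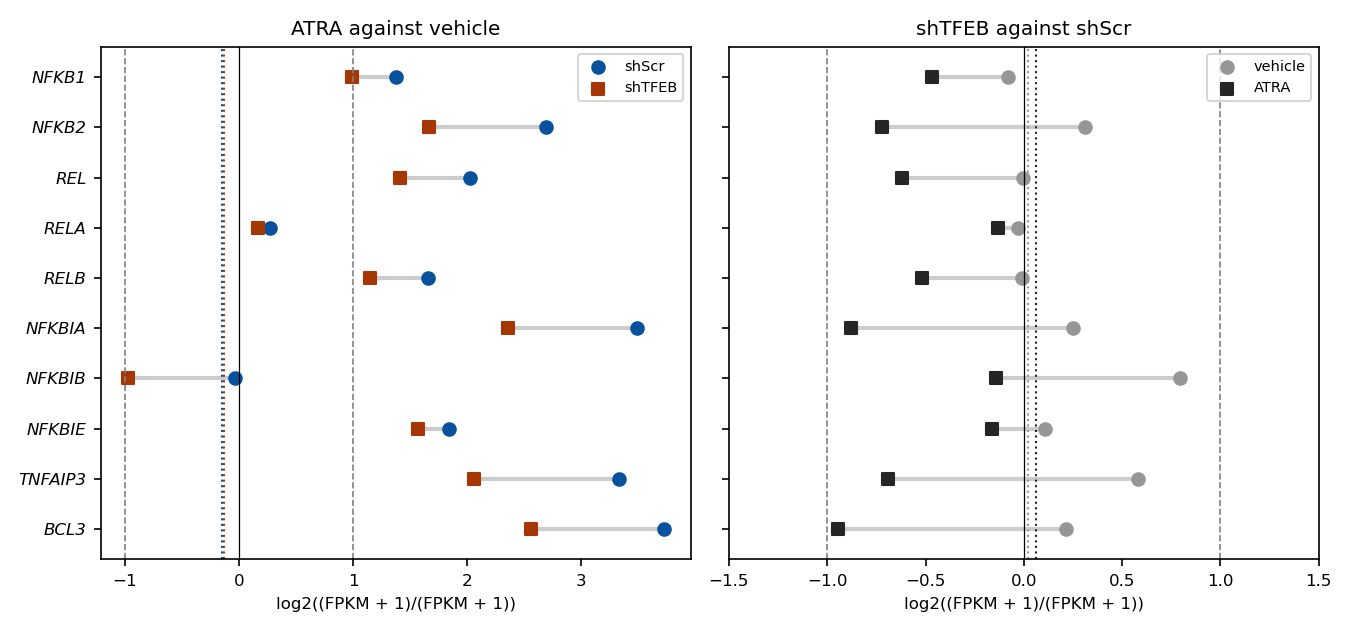
Log2 ratio of each gene after adding 1 FPKM, for ATRA against vehicle in each line (left) and for shTFEB against shScr under each treatment (right), with the 2-fold mark dashed and the median of all genes dotted. The response labelled shTFEB lies left of the shScr response for all 10 genes, and under ATRA every shTFEB to shScr ratio lies between −0.94 and −0.13.

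Under ATRA all 10 genes had a log2 ratio below 0 for shTFEB against shScr, where 40.4% of all genes did. None of them passed the 2-fold mark in either direction, where 1.58% of all genes were lower past it and 2.67% higher. The median over the members was −0.57 and that over all genes 0.06. At the 1.5-fold mark 5 of the 10 were lower, BCL3, NFKBIA, NFKB2, TNFAIP3 and REL, where 4.02% of all genes were. The deposited bounds of the 2 groups did not overlap for 8 of the 10, where 19.7% of all genes were lower with such bounds.

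In order of size, BCL3 in shTFEB ATRA stood at 49.3% of its shScr ATRA level (log2 ratio −0.94) and NFKBIA at 54.0% (−0.88). NFKB2 followed with 59.99% (−0.72), TNFAIP3 with 61.1% (−0.69) and REL with 63.0% (−0.62). RELB stood at 66.8% and NFKB1 at 71.6%. The 3 genes nearest to equal levels were NFKBIE at 89.2%, NFKBIB at 88.9% and RELA at 91.0%. For RELA and NFKBIB the bounds overlapped, and with only the highest model counted RELA had a ratio above 0, at 0.19. BCL3 passed the 2-fold mark after median-of-ratios rescaling (−1.005), after upper-quartile rescaling (−1.04) and with 0.1 FPKM added (−1.01).

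The vehicle groups were closer to each other. None of the 10 genes passed the 2-fold mark, where 1.06% of all genes were higher in the group labelled shTFEB and 0.787% lower. REL, RELA, RELB and NFKB1 stood at 99.5%, 97.9%, 99.2% and 94.0% of their shScr vehicle levels, with bounds that overlapped. For NFKB2 (128%), NFKBIA (121%), TNFAIP3 (161%) and NFKBIB (185%) the level in the labelled shTFEB group was higher with bounds that did not overlap, where 21.9% of all genes were. TNFAIP3 and NFKBIB had the 2 largest log2 ratios, 0.58 and 0.79, and 2.56% and 1.54% of all genes had a higher one.

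The ATRA response of cells labelled shTFEB was set against that of shScr cells as the difference of their log2 ratios. Because this difference uses the same 4 values as the comparisons above, it is not a separate line of support. It was below 0 for all 10 genes, where it was for 43.9% of all genes (with the highest model it was 0.25 for RELA), with a median of −0.78 over the members and 0.04 over all genes. For 4 genes it passed −1, where 1.86% of all genes did and 2.43% passed 1 in the other direction: TNFAIP3 (−1.27), BCL3 (−1.16), NFKBIA (−1.13) and NFKB2 (−1.03). TNFAIP3, NFKBIA and NFKB2 each had a higher level in the line labelled shTFEB under vehicle and a lower one under ATRA, with bounds that did not overlap in either case. Of all genes 21.9% were higher with such bounds under vehicle and 19.7% lower under ATRA. The share with both was not counted. For the other members except NFKBIB the bounds overlapped under vehicle. With 5 FPKM added, only NFKBIA passed −1.

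Estimates for single transcript models showed which values rest on the split of fragments between overlapping models. The NFKB2 sum came mainly from NM_002502, with 64.6% to 73.9% of the gene's FPKM, and from NM_001077494, with 24.4% to 28.3%, and these shares were similar in the 4 groups. NM_001261403 held 0.792 FPKM in shScr vehicle and was listed at 0 in the other 3 groups, with upper bounds of 0.00746 to 0.00961 FPKM. For NFKB1, whose models are NM_003998 and NM_001165412, the share of NM_003998 lay between 52.9% and 61.7%.

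RELA fragments were assigned mostly to NM_021975, at 17.6 FPKM (vehicle) and 20.6 FPKM (ATRA) in the shScr line and at 16.9 and 23.7 FPKM in the line labelled shTFEB. The remainder went to NM_001145138 in the vehicle groups (3.83 and 4.05 FPKM), to NM_001243985 in shScr ATRA (5.45 FPKM) and to no other model in shTFEB ATRA. By NM_021975 alone, RELA was therefore highest in shTFEB ATRA, while by the sum it was highest in shScr ATRA.

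NFKBIB had a split of another kind. The noncoding model NR_040515 held 5.95, 5.77, 6.64 and 5.13 FPKM in shScr vehicle, shScr ATRA, labelled shTFEB vehicle and shTFEB ATRA. The coding model NM_002503 held 4.39 FPKM in labelled shTFEB vehicle and was listed at 0 in the other 3 groups. The higher NFKBIB sum of that group thus rests on 1 model, and with only the highest model counted its log2 ratio against shScr vehicle was 0.14. The NFKBIB models overlap the neighbouring gene SIRT2 by 163 bases, and whether the counting used strand is not given in the sources used here. SIRT2 stood at 6.33 FPKM in shScr vehicle and 7.31 in shScr ATRA, and at 3.88 in labelled shTFEB vehicle and 6.52 in shTFEB ATRA, so that it was lowest in the group where NFKBIB was highest, and its part in the NFKBIB values was not tested.

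The 3 TNFAIP3 models divided unequally under vehicle. NM_006290 held 1.83 FPKM in shScr vehicle and 5.57 FPKM in labelled shTFEB vehicle, while NM_001270507 held 1.69 FPKM in the former and was listed at 0 in the latter. Under ATRA NM_006290 held 39.0 FPKM (shScr) and 23.0 FPKM (shTFEB), 74.6% and 72.1% of the gene. With only the highest model counted, the vehicle log2 ratio of TNFAIP3 was 1.22, past the mark, against 0.58 for the sum. TNFAIP3 overlaps the noncoding gene WAKMAR2 by 1046 bases, whose level stayed between 0.168 and 1.003 FPKM.

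**Figure D4:**
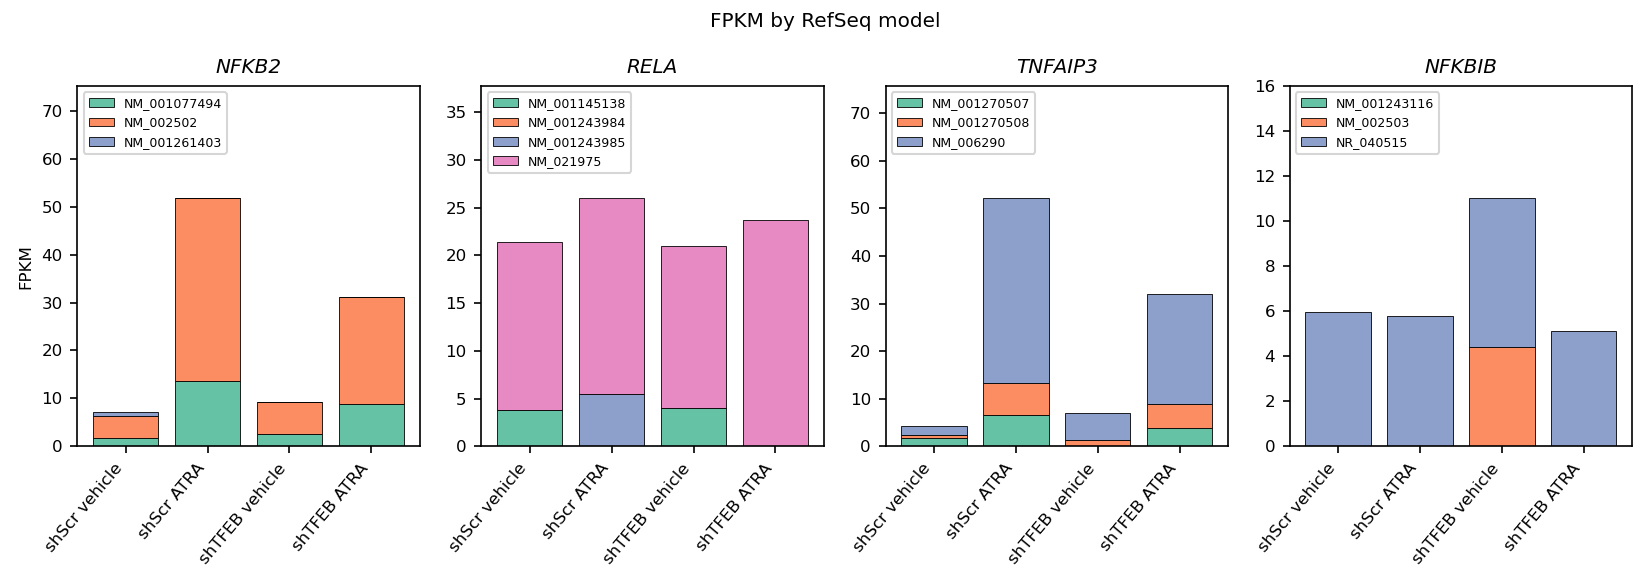
FPKM of each RefSeq model, stacked to the gene's sum, for NFKB2, RELA, TNFAIP3 and NFKBIB in the 4 groups. The NFKB2 and TNFAIP3 sums under ATRA come from the same leading model in both lines, whereas the tall NFKBIB bar of labelled shTFEB vehicle includes 4.39 FPKM of a model at 0 elsewhere.

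REL, RELB, NFKBIA, NFKBIE and BCL3 have 1 RefSeq model each, so that their values rest on no split between RefSeq models of the gene. Sharing of fragments with models that carry no gene symbol was not examined. For these 5 genes, however, 9 of the 20 FPKM values lay above their deposited upper bounds, while all 20 values of the other 5 genes lay within theirs. Of all models of at least 1 FPKM, between 77.5% and 80.4% lay within their bounds, depending on the group, so values outside the bounds are not particular to these genes. The bounds are therefore taken as the tables give them, with no level of confidence attached.

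The other genes of the pathway were grouped by their place in it. Among 15 further IκB relatives and negative regulators, 13 could be compared. ATRA raised 6 of them in shScr and 5 in cells labelled shTFEB and lowered none, where 12.5% and 11.5% of all genes rose and 15.2% and 10.5% fell. The median log2 ratios were 0.81 and 0.48, beside −0.15 and −0.13 over all genes. Between the ATRA groups none of the 13 passed the mark, where 1.58% of all genes were lower and 2.67% higher. The median of the 13 was −0.10. NFKBIZ, the gene of the nuclear IκB relative IκBζ, went from 1.79 to 17.1 FPKM in shScr and from 2.38 to 10.49 FPKM in cells labelled shTFEB. The deubiquitinase gene CYLD went from 3.53 to 18.2 and from 4.40 to 22.2 FPKM, so that its shTFEB value was the higher under ATRA. ZC3H12A, which encodes the RNase Regnase-1, had log2 ratios of 2.26 and 1.64, and N4BP1 1.67 and 1.46. NKIRAS2 is listed at 0 in shScr vehicle and lies between 14.9 and 20.3 FPKM in the other groups, so no fold is given, although it counts among the 6 that rose in shScr cells. Without it the median in shScr cells was 0.68. NKIRAS2 is the 1 member of this list past the mark between the vehicle groups, where 1.06% of all genes were higher.

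Of 12 genes of the IKK and TAK1 kinase complexes 11 could be compared. With ATRA 3 rose in each line and none fell (medians 0.32 and 0.38), beside the same shares of all genes. The catalytic IKK genes CHUK and IKBKB lay between 29.1 and 38.3 FPKM and between 10.3 and 14.4 FPKM in the 4 groups, and the scaffold gene IKBKG between 12.3 and 14.3 FPKM. MAP3K14, the kinase gene of the alternative pathway, lay between 0.670 and 0.902 FPKM and was too low to be compared. TANK, an adaptor of the related kinase TBK1, rose in both lines (log2 ratios 1.88 and 1.94), as did MAP3K8 (1.18 and 1.04). IKBKE rose in shScr cells, from 22.6 to 48.5 FPKM (log2 ratio 1.07), and stood at 21.3 and 28.6 FPKM in the line labelled shTFEB (0.41). TBK1 passed the mark in cells labelled shTFEB, at 1.03.

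Among 23 comparable adaptors and ubiquitin ligases of 24, ATRA raised 5 in each line, where 12.5% and 11.5% of all genes rose. UBE2N fell in shScr cells, from 122 to 57.4 FPKM, the 1 gene of the list to do so where 15.2% of all genes fell, and none fell in cells labelled shTFEB, where 10.5% did. The medians were 0.26 and 0.25. MYD88, the adaptor of Toll-like and interleukin-1 receptors, went from 8.69 to 76.8 FPKM in shScr and from 7.90 to 71.3 FPKM in cells labelled shTFEB (log2 ratios 3.01 and 3.02). BIRC3, which encodes the ubiquitin ligase cIAP2, went from 0.0853 to 8.48 and from 0.0898 to 5.53 FPKM. BIRC2 rose in both lines (1.27 and 1.22) and the LUBAC subunit gene RBCK1 in cells labelled shTFEB (1.21). Between the ATRA groups IRAK2 was the 1 gene of the list past the mark, where 1.58% of all genes were lower and 2.67% higher. It stood at 4.90 FPKM (shScr) and 1.76 FPKM (shTFEB) and was chosen after its values were seen.

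Of 15 receptor genes 9 could be compared, of which 5 rose in shScr and 6 in cells labelled shTFEB and none fell (medians 1.04 and 1.17), where 12.5% and 11.5% of all genes rose and 15.2% and 10.5% fell. TNFRSF1B, the gene of the second TNF receptor, went from 6.34 to 75.1 FPKM and from 6.93 to 63.0 FPKM. CD40, a receptor that can feed the alternative pathway, was at 0.00952 and 0.0487 FPKM under vehicle and at 11.6 and 9.16 FPKM under ATRA. The Toll-like receptor genes TLR1 (2.24 and 2.15), TLR6 (1.26 and 1.04) and TLR4 (1.04 and 1.59) rose in both lines. No receptor gene passed the mark between shTFEB and shScr cells under either treatment. Of all genes 1.06% were higher and 0.787% lower past it under vehicle, and 2.67% higher and 1.58% lower under ATRA.

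Textbook NF-κB targets, of which 27 of 33 could be compared, rose in 21 cases in shScr and in 20 cases in cells labelled shTFEB, and TNF fell in both. Of all genes 12.5% and 11.5% rose and 15.2% and 10.5% fell. The medians of the targets were 3.01 and 2.51, beside −0.15 and −0.13 over all genes. BCL2A1, a survival gene, had log2 ratios of 6.82 and 6.89 and the chemokine gene CXCL10 6.87 and 6.91, both close in the 2 lines. ICAM1, an adhesion molecule gene, had 7.35 in shScr and 6.06 in cells labelled shTFEB, and the chemokine gene CCL2 8.63 and 6.38. ICAM1 stood at 2.20 (shScr) and 5.11 FPKM (labelled shTFEB) under vehicle, and at 522 and 406 FPKM under ATRA. CCL2 stood at 2.75 and 12.97 FPKM under vehicle and at 1488 and 1161 FPKM under ATRA. CCL2 was the 1 target past the mark between the vehicle groups (1.90), where 1.06% of all genes were higher. TNF stood at 75.0 and 33.6 FPKM in shScr vehicle and ATRA, and at 59.6 and 16.2 FPKM in the line labelled shTFEB.

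Between the ATRA groups, 6 of these 27 targets were lower in cells labelled shTFEB past the mark and none was higher, where 1.58% of all genes were lower and 2.67% higher. The median was −0.36, beside 0.06 over all genes. IER3, an early survival gene, stood at 39.6 FPKM in shScr ATRA and 12.2 FPKM in shTFEB ATRA (−1.62). The proteoglycan gene SDC4 had −1.42, and CXCL8, the neutrophil chemokine gene, stood at 307 and 118 FPKM (−1.37). CD44 had −1.31, EBI3 −1.22 and TNF −1.01. Targets did not share 1 direction: the log2 ratios of CCL5, IRF1 and PLAU were 0.44, 0.42 and 0.99. EBI3 and the 3 last genes were named after their values were seen.

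**Figure D5:**
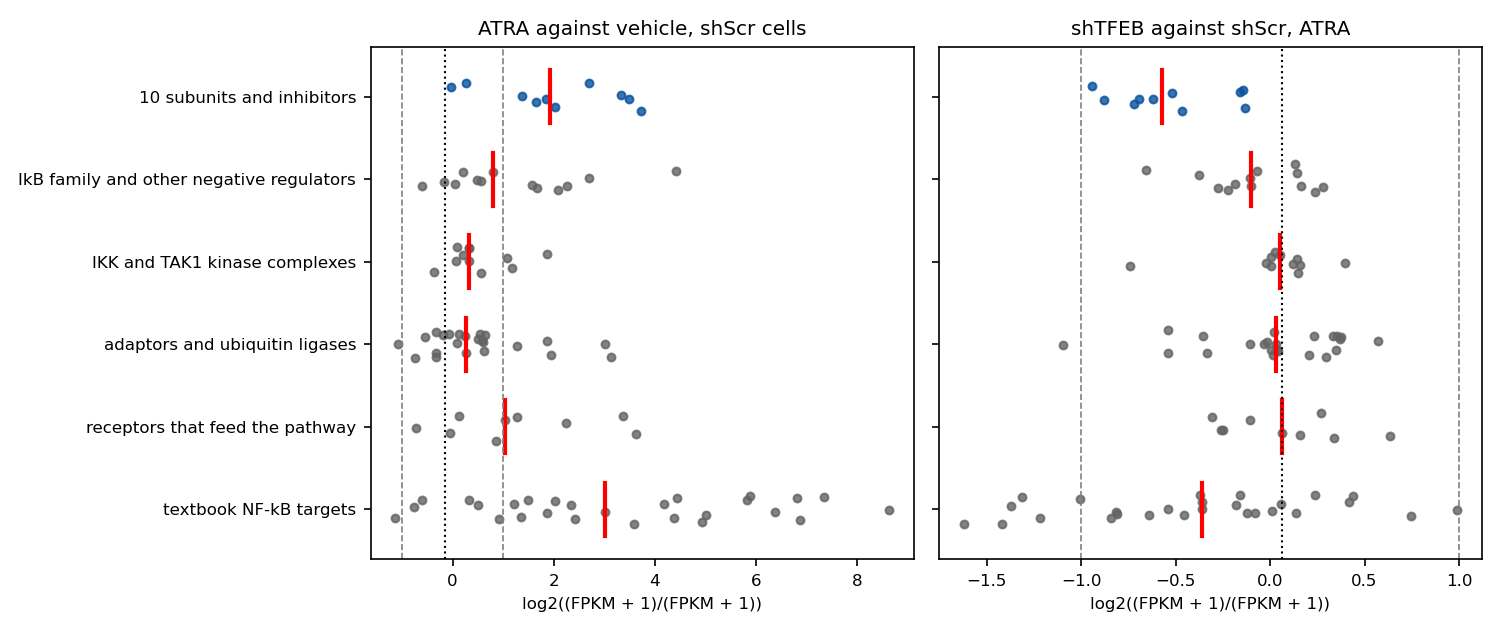
Log2 ratio of each comparable gene after adding 1 FPKM, in the 10 subunits and inhibitors and in 5 pathway lists, for ATRA against vehicle in shScr cells (left) and shTFEB against shScr under ATRA (right). Red bars are medians, the dotted line is the median of all genes and dashed lines are the 2-fold mark; in the right panel the 10 genes have a median of −0.57, the textbook targets −0.36, the IκB relatives and negative regulators −0.10, and the kinase, adaptor and receptor lists 0.06, 0.03 and 0.06.

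For each member that rose in both lines, the genes with the most similar profile over the 4 groups were sought among 8552 genes, by the Euclidean distance of log2(FPKM + 1) values centred on the gene's mean. The nearest gene to NFKB2 was NFKBIZ (distance 0.076), itself an IκB relative, followed by SIRPB2 and SDCBP. BCL3 was nearest to HIVEP3 (0.17), DTX4 and LIF. NFKBIE lay nearest to MTF1 (0.057), SKIL and MCL1. REL had BMP2K, VASH1 and ABTB1, and RELB had PDLIM5, SMIM14 and NBEAL2. NFKBIA had DTX4, ADAM11 and PSTPIP2, and TNFAIP3 had ADAM11, PILRA and PPP1R16B. DTX4 stood at 0.0184 (shScr) and 0.0176 FPKM (labelled shTFEB) under vehicle and at 10.5 and 5.05 FPKM under ATRA. Because 1 FPKM is added, a gene so low under vehicle can lie near a member with a much smaller fold. The likeness rests on 4 values per gene and is a description only.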

How the data were processed

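RNA of NB4 cells in 4 groups of 2 samples was read from 4 deposited tables, 1 per group, each with 65986 transcript models. The deposited FPKM values and their lower and upper bounds are the authors' estimates. TopHat, Cufflinks, Cuffdiff and hg19 are named in the submitters' processing notes; versions, and how the 2 samples were combined, are not given in the sources used here. FPKM and bounds were summed over the RefSeq models of a symbol (39837 of 41159 accessions matched by a RefSeq table of GRCh38.p14, used for names; 96.8%), and genes with a mean of at least 1 FPKM were compared. Up to 4 genes of at least 5 FPKM are named per pathway list and comparison. Members, lists and marks were chosen with earlier results of these data known. The tables hold no counts, so counting intervals were not computed. Relative depth is the median ratio of upper bounds of models at 0 in both tables. Calculations used Python 3.11.15, pandas 2.3.3 and numpy 2.4.6, and were tested on simulated data. Alternatives were other pseudocounts, filters, rescalings, models and bounds.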

Additional observations from a re-analysis of the deposited data

How the results depend on the processing

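No paired analysis was possible because each table holds 1 value per group, and no sample could be left out for the same reason. No log2 ratio of the 10 members past the 2-fold mark changed sign under the alternatives run; other genes were followed as counts only. Of the 216 counts under alternatives 191 were within 1.5 times the value reported. With 0.1 FPKM added, 1 member (NFKBIB) and 2 other pathway genes fell in cells labelled shTFEB, where 1451 of all 11050 genes fell. Between the ATRA groups 1 member (BCL3) was lower, where 226 of all genes were. There 1 other pathway gene was higher, where 394 of all genes were. In cells labelled shTFEB 8 members in place of 7 rose with 0.1 FPKM added, where 1439 of all 11050 genes did. The same 8 in place of 7 rose there after median-of-ratios and after upper-quartile rescaling, where 1440 of 11054 and 1304 of 11052 genes did. The further member was NFKB1, with log2 ratios of 1.04, 1.13 and 1.02 in these settings. With 5 FPKM added, 7 members in place of 8 rose in shScr cells, and 5 in place of 7 in cells labelled shTFEB. Other pathway genes that rose numbered 31 in place of 40 and 28 in place of 39. Of all 11050 genes 873 and 795 rose in that setting. In it 1 member had a smaller response past the mark, where 126 of all genes did. Between the ATRA groups 4 other pathway genes were lower, where 101 of all genes were. A larger response was shown by 0 other pathway genes, where 186 of all genes had one. After median-of-ratios and after upper-quartile rescaling, 1 member was lower between the ATRA groups, where 196 of 11054 and 206 of 11052 genes were. After either rescaling 0 other pathway genes fell in shScr cells, where 1258 and 1358 of all genes fell. A larger response was shown by 0 other pathway genes, where 256 and 245 of all genes had one. With only the highest model of a gene, 1 member (TNFAIP3) was higher between the vehicle groups, where 113 of 10921 genes were. At a 1.5-fold mark, added after the data were seen, 1 member fell in cells labelled shTFEB, 1 was higher between the vehicle groups and 5 were lower between the ATRA groups. For the 83 other pathway genes, with the numbers among all 11050 genes in brackets, that mark gave 7 (3194) lower in shScr cells and 4 (2695) in cells labelled shTFEB with ATRA. It gave 5 (279) higher and 2 (194) lower between the vehicle groups, 3 (802) higher and 13 (444) lower between the ATRA groups, and 4 (648) larger and 18 (512) smaller responses. Median-of-ratios rescaling shifted the median log2 ratio of all genes from −0.15 to 0.00 in shScr cells, and the split from 1384 higher and 1676 lower genes to 1612 and 1258.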
